A study of Homo sapiens with 12 samples.

Results

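The transcripts encoded by the mitochondrial genome were examined in NCI-H295R cells, a human adrenocortical carcinoma line that secretes cortisol. Members were all genes of the table whose symbol begins with MT-, 37 of 60662 genes: 2 ribosomal RNAs (rRNAs), 13 messenger RNAs (mRNAs) and 22 transfer RNAs (tRNAs), all annotated on the circular chromosome M of GRCh38 (16569 nt). Of the 3 groups, CJ28 and MET received an inhibitor for 24 h, namely CJ28 or metyrapone, each at 30 µM, and VEH received the solvent alone (DMSO at 0.1%). All cultures had reached confluence and spent 12 h without serum before treatment, which also took place in serum-free medium. CJ28 and MET are both inhibitors of cortisol synthesis, and MET is known to block the adrenal enzyme that makes cortisol from its last precursor. Each group had 4 samples of this single cell line, and nothing in the sources used here says whether the 4 came from separate cultures, so that p-values measure only the spread between these samples.

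The mitochondrial genome is transcribed from both strands into long precursor RNAs by a dedicated polymerase, POLRMT. Enzymes cut the tRNAs out of these precursors, which frees most of the rRNAs and mRNAs that lie between them. The rRNAs build the mitochondrial ribosome, and the mRNAs encode core subunits of respiratory complexes I, III and IV and of the ATP synthase (complex V), while all other subunits are encoded in the nucleus. In steroid-producing cells the mitochondria also house the enzymes of the first and last steps of cortisol synthesis, which are nuclear-encoded.

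The plus strand, as GRCh38 is written, carried both rRNA genes, 12 mRNA genes and 14 tRNA genes. The minus strand carried 1 mRNA gene, MT-ND6, and 8 tRNA genes. Several genes share bases with a neighbour, so that a read from the shared stretch can belong to either. MT-ATP8 and MT-ATP6, both on the plus strand, share 46 nt at chrM:8527-8572, and MT-ND4L and MT-ND4 share 7 nt at chrM:10760-10766. These stretches are shown with 20 bases on either side, read 5′ to 3′ on the plus strand of GRCh38, with the shared bases in capitals.
MT-ATP8/MT-ATP6: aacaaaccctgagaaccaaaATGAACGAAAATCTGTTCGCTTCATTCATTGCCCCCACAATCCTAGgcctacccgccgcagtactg
MT-ND4L/MT-ND4: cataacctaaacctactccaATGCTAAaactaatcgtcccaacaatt

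Nuclear pseudogenes that arose from mitochondrial DNA are a further place where reads can be divided. A run of such copies lies on the plus strand of chromosome 1, and 7 mRNA genes have a partner there that is 97.6% to 98.7% identical over the aligned bases. The 4 pairs below are shown because their copies were listed at very different levels, and for each the stretch of 100 nt with the most differences is printed from both places, read 5′ to 3′ on the plus strand, with the differing bases in capitals. The stretches lie at chrM:3907-4006 and chr1:629077-629176 for MT-ND1, at chrM:6200-6299 and chr1:631370-631469 for MT-CO1, at chrM:7792-7891 and chr1:632963-633062 for MT-CO2, and at chrM:8619-8718 and chr1:633788-633887 for MT-ATP6.
MT-ND1: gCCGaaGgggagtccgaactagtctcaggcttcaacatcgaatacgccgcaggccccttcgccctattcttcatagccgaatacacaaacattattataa
MTND1P23: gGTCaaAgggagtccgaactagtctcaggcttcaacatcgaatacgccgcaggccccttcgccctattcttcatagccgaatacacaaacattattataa
MT-CO1: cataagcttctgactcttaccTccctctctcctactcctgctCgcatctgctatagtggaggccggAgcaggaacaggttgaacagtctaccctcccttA
MTCO1P12: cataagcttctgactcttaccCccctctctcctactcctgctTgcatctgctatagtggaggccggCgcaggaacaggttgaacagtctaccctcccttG
MT-CO2: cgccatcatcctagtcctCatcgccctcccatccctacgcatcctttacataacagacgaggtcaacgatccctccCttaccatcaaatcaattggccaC
MTCO2P12: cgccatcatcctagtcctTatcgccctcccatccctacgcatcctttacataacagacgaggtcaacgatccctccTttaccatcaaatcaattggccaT
MT-ATP6: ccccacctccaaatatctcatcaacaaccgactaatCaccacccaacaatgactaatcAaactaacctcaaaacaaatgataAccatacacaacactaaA
MTATP6P1: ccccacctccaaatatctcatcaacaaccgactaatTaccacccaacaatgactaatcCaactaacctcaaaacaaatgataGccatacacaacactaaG

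Even in these stretches a pair differs at only 3 or 4 bases. Of all aligned 100-nt windows without a gap, 36.6% were identical between MT-ND1 and MTND1P23, 29.9% between MT-CO1 and MTCO1P12, 11.9% between MT-ATP6 and MTATP6P1, and 2.75% between MT-CO2 and MTCO2P12. Among the pairs not shown, this share was 26.1% for MT-ND2 and MTND2P28 and 6.7% for MT-CO3 and MTCO3P12. It was 0% for MT-ATP8 and its copy. The levels assigned to the copies spanned a wide range. In VEH, MTND1P23 stood at 79.2% to 81.5% of the TPM of MT-ND1, MTCO1P12 at 23.2% to 24.8% of MT-CO1 and MTATP6P1 at 22% to 23% of MT-ATP6. MTND2P28 stood at 2.91% to 3.63% of MT-ND2 and MTCO3P12 at 0.046% to 0.057% of MT-CO3. MTCO2P12 stood at only 0.042% to 0.055% of MT-CO2, and the copy of MT-ATP8 was listed at 0. A larger share of identical windows thus did not always come with a higher copy level, as MTND2P28 was below MTATP6P1 by this measure. RSEM, the program that made the table, divides reads among such pairs, so the levels of MT-ND1, MT-ND2, MT-CO1 and MT-ATP6 are uncertain. These percentages are ratios of TPM, which is per length, and not shares of reads. MTND1P23 is a partial copy of 372 nt that aligned to 365 of the 956 nt of MT-ND1, whereas MTCO1P12 and MTATP6P1 aligned along the whole of their partners.

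Values are TPM, each gene's reads corrected for its length and given as a share of a fixed library total. Levels of different genes are set side by side as far as that correction holds, which was not tested for short genes. Differences are log2 fold changes of TPM + 0.1, tested with limma in 1 fit of all 12 samples over the 16815 genes that reached 0.5 TPM in 4 or more samples, and genes with a Benjamini-Hochberg adjusted p under 0.05 are said to have risen or fallen. Of the 37 members, 15 passed this filter: both rRNAs and all 13 mRNAs. The 22 tRNAs did not, since each was listed at 0 in all 12 samples.

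The zeros of the tRNAs came with their length. The tRNA genes span 59 to 75 nt, and the shortest, MT-TS2, one of the serine tRNAs at chrM:12207-12265 on the plus strand, is shown whole.
MT-TS2: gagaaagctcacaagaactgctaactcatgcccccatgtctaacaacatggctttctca

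The shortest gene above 0 was 101 to 105 nt long, depending on the sample. None of the 3051 genes in the table shorter than 101 nt, nuclear ones included, was above 0 in any sample (0 of 3051). A TPM of 0 therefore gives no level for the mitochondrial tRNAs of either strand, in any group.

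The identity of the cells and the make-up of the libraries bear on all values that follow. Of 8 adrenocortical markers (among them CYP11A1, CYP17A1, STAR and NR5A1), 6 had a mean of at least 1 TPM in VEH and 2, HSD3B2 and CYP11B1, did not. HSD3B2 averaged 0.86 TPM in VEH, whereas CYP11B1 was at 0 to 0.05 TPM in all 12 samples. The summed level of the 8 markers was 271 to 281 TPM in VEH, 109 to 116 in CJ28 and 270 to 284 in MET. None of 10 markers of chromaffin, endothelial, stromal and blood cells reached a mean of 1 TPM in VEH, TH was at 0 in every sample, and their summed level was 1.15 to 2.26 TPM in VEH, 0.70 to 1.00 in CJ28 and 1.06 to 1.64 in MET. RN7SL1 and RN7SL2, cytosolic RNAs of the signal recognition particle, took 29.7% to 32.7% of TPM in VEH, 36.0% to 38.2% in CJ28 and 31.4% to 32.9% in MET, and nuclear protein-coding genes together 24.3% to 24.8%, 21.3% to 21.4% and 24.1% to 24.6%. Because TPM sums to the same total in every library, a share that grows lowers all others, and the median log2 fold change of all genes tested was -0.13 in CJ28 against VEH, -0.03 in MET against VEH and -0.11 in CJ28 against MET. In bulk RNA, fewer cells of a type and less RNA per cell cannot be told apart.

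The 2 rRNAs led the table of mitochondrial transcripts. MT-RNR2, the rRNA of the large mitochondrial ribosomal subunit, was at 86405 to 87175 TPM in VEH, and MT-RNR1, that of the small subunit, at 26423 to 42039 TPM. Both are what was left after rRNA depletion of the samples, and whether the reagent removed mitochondrial rRNA is not given in the sources used here. Among mRNAs, the 3 complex IV subunits and the ATP synthase subunits stood highest: MT-CO3 averaged 6585 ± 223 TPM in VEH (SD, n = 4), MT-CO2 3744 ± 227, MT-CO1 2803 ± 206, MT-ATP8 2095 ± 325 and MT-ATP6 1212 ± 163. Then came MT-ND3 (1035 ± 110), MT-CYB (747 ± 101), MT-ND4 (578 ± 90.6), MT-ND4L (547 ± 72.9), MT-ND1 (355 ± 52.7), MT-ND2 (230 ± 27.7) and MT-ND5 (208 ± 20.8). MT-ND6, the minus-strand mRNA, was lowest at 155 ± 17.2 TPM. In VEH, neighbours in this order overlapped between samples for MT-ATP6 and MT-ND3, MT-CYB and MT-ND4, MT-ND4 and MT-ND4L, and MT-ND2 and MT-ND5, and all other neighbours were apart.

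**Figure D1:**
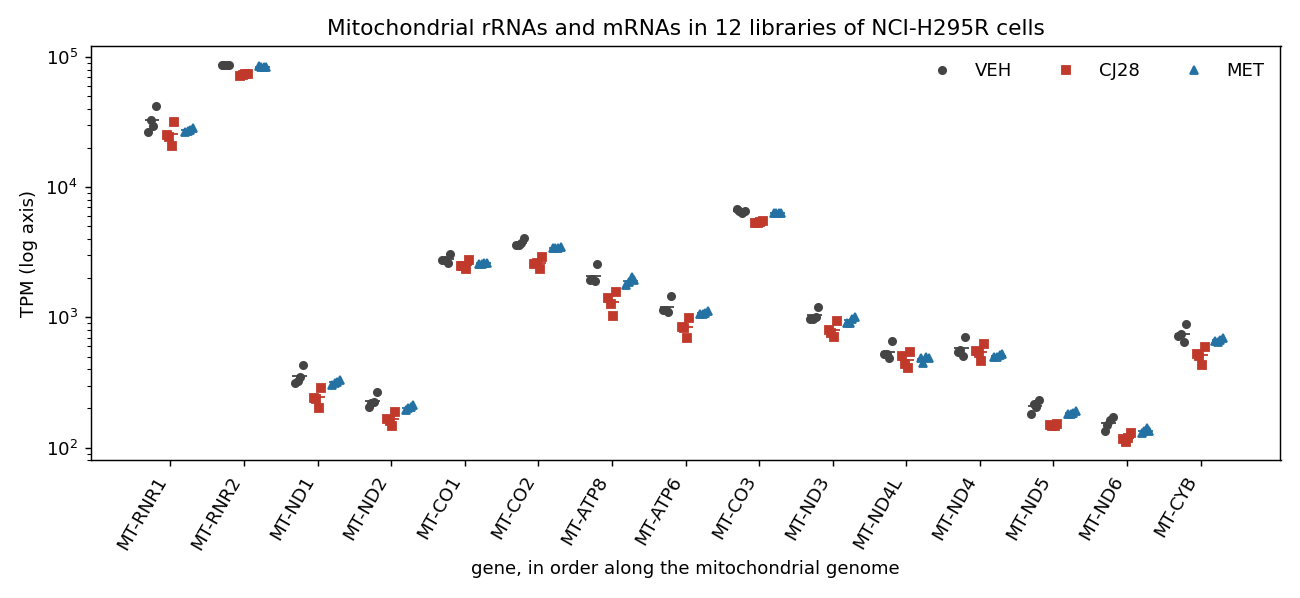
TPM (log axis) of the 2 rRNAs and 13 mRNAs in each of 12 libraries, in genome order; points are libraries, short lines group means. MT-RNR2 lies between 70921 and 87175 TPM and MT-ND6 between 111 and 173 TPM, and the order of genes is nearly the same in VEH, CJ28 and MET.

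The order of the 15 levels was nearly fixed. With 2 exceptions, each gene was above the next in all 12 samples. MT-ATP6 was above MT-ND3 in 11 of 12 samples. MT-CYB was above MT-ND4 in 8 of 12, which were the VEH and MET samples, and below it in all 4 CJ28 samples. MT-ATP8, a gene of 207 nt, was above MT-ATP6 in all 12 samples, although the 2 lie on the same mRNA. Ranks and shares of such short genes rest on the length correction.

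The first question was whether CJ28 changed the level of mitochondrial transcripts. Of the members, 13 of 15 tested fell in CJ28 against VEH, both rRNAs and 11 of 13 mRNAs, and none rose, with 10 and 8 of 15 lower in the 2 other scalings (median-of-ratios and nuclear protein-coding TPM). Of all genes tested, 57% were called in this comparison, 37.1% as lower and 19.9% as higher. The median log2 fold change was -0.38 over the 15 members and -0.47 over the 13 mRNAs, beside -0.13 over all genes. In 11 members every CJ28 sample was below every VEH sample, which held for 32.7% of all genes. The summed level of the 13 mRNAs was 19836, 19737, 19231 and 22369 TPM in VEH, 15707, 15400, 14420 and 17191 TPM in CJ28 and 18551, 18551, 18947 and 19050 TPM in MET. The CJ28 sums were thus all below the others, and the MET sums were all below those of VEH by a smaller margin.

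**Figure D2:**
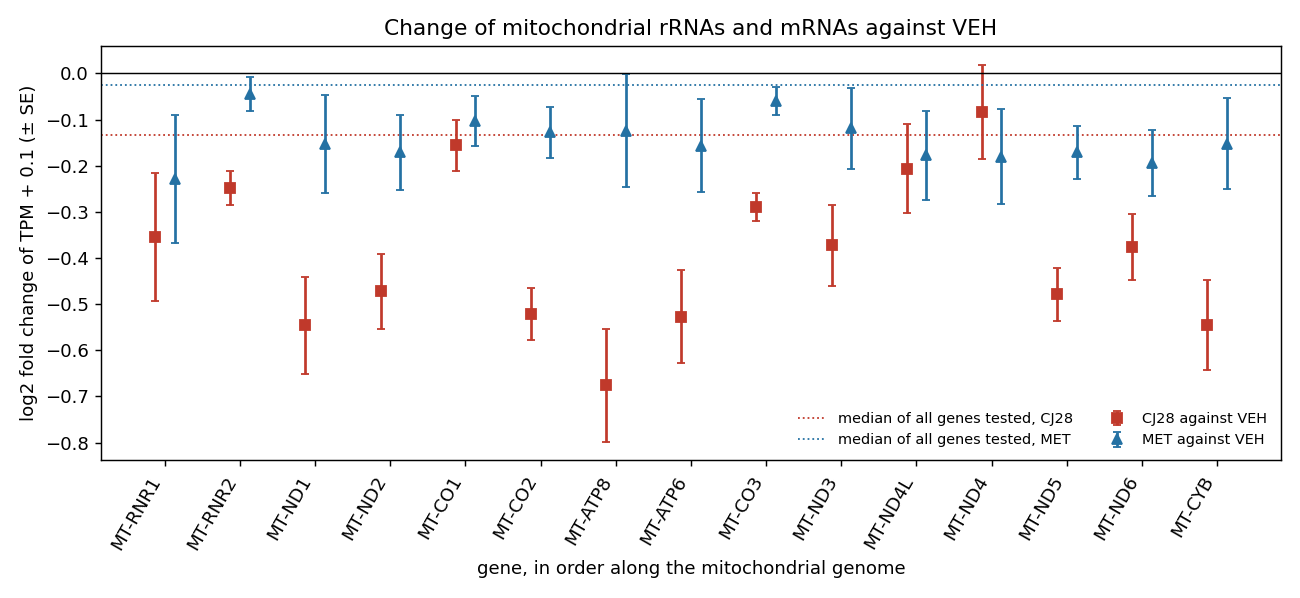
Log2 fold change of TPM + 0.1 against VEH (points) with its SE (bars) for the 15 members in genome order, CJ28 and MET side by side; dotted lines mark the medians of all genes tested, -0.13 for CJ28 and -0.03 for MET. The values of CJ28 run from -0.68 (MT-ATP8) to -0.08 (MT-ND4), and those of MET from -0.23 (MT-RNR1) to -0.04 (MT-RNR2).

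The log2 fold changes of the rRNAs were -0.25 and -0.35, beside a median of -0.47 for the mRNAs. MT-RNR2 was at 87175, 86405, 86590 and 86872 TPM in VEH and at 70921, 73241, 74081 and 73942 TPM in CJ28. The groups did not overlap, and MT-RNR2 fell by 0.25 on the log2 scale (SE 0.037, adjusted p = 9.24e-05 by limma), a call lost in both other scalings. MT-RNR1 was at 26423, 32618, 29464 and 42039 TPM in VEH and at 25160, 24251, 20668 and 31690 TPM in CJ28. These groups overlapped, with VEH-4 and CJ28-4 the highest of their groups, and the change of -0.35 (SE 0.14) passed narrowly (adjusted p = 0.0448 by limma). Its call was lost in 13 of 22 alternative settings, among them those without VEH-2, VEH-4, CJ28-1, CJ28-2, CJ28-3 or any single MET sample (adjusted p of 0.0549 to 0.133, log2 fold change of -0.35 to -0.23). The ratio of MT-RNR2 to MT-RNR1, which lie next to each other with 1 tRNA gene between them, was 2.74 ± 0.52 in VEH, 2.94 ± 0.52 in CJ28 and 3.07 ± 0.12 in MET (SD, n = 4 each), and no pair of groups passed the exact two-sided permutation test (p = 0.286 or more).

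The complex I mRNAs differed among themselves. MT-ND1 and MT-ND2, membrane subunits, fell by 0.55 (SE 0.11) and 0.47 (SE 0.082), with adjusted p = 0.000764 and 0.000313 by limma. MT-ND1 was at 314, 324, 350 and 430 TPM in VEH and at 241, 238, 203 and 289 TPM in CJ28. Its highest CJ28 sample was CJ28-4 and its highest VEH sample VEH-4, and the groups did not overlap. MT-ND5, the longest mRNA here (1812 nt), was at 181, 217, 204 and 230 TPM in VEH and at 150, 146, 148 and 151 TPM in CJ28. The 4 CJ28 values lay close together and below all VEH values, and the fall was 0.48 on the log2 scale (SE 0.057, adjusted p = 1.41e-05 by limma). MT-ND3 fell by 0.37 (SE 0.087, adjusted p = 0.00288).

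MT-ND4L and MT-ND4, which lie on 1 shared mRNA, did not pass the test. MT-ND4 was at 538, 563, 503 and 709 TPM in VEH, at 555, 532, 461 and 630 TPM in CJ28 and at 494, 496, 514 and 521 TPM in MET. The groups overlapped throughout, and its log2 fold change was -0.08 (SE 0.10, adjusted p = 0.511 by limma) in CJ28 against VEH. MT-ND4L was at 523, 524, 489 and 654 TPM in VEH and at 506, 436, 411 and 543 TPM in CJ28, with a change of -0.21 (SE 0.097, adjusted p = 0.087). A p that misses the threshold does not show that these levels stayed the same.

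MT-ND6, the complex I subunit encoded on the minus strand, was at 134, 149, 164 and 173 TPM in VEH, at 117, 111, 119 and 130 TPM in CJ28 and at 129, 134, 142 and 135 TPM in MET. All CJ28 samples were below all VEH samples, and MT-ND6 fell by 0.38 (SE 0.071, adjusted p = 0.000658 by limma). Its neighbour on the other strand, MT-ND5, gives the comparison of strands. The ratio of MT-ND6 to MT-ND5 was 0.745 ± 0.048 in VEH, 0.800 ± 0.043 in CJ28 and 0.732 ± 0.028 in MET (SD, n = 4 each). Over the 12 tests of 4 ratios in 3 comparisons, the smallest exact two-sided permutation p was 0.0571, for this ratio in CJ28 against MET (Benjamini-Hochberg adjusted 0.429), where 0.0286 is the smallest that 4 against 4 samples can give. The library kit keeps strand, but the strand setting of the counting is not given in the sources used here, so reads of MT-ND6 and of any antisense RNA there cannot be told apart.

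MT-CYB, the only mitochondrial subunit of complex III, was at 715, 741, 646 and 886 TPM in VEH and at 524, 502, 428 and 592 TPM in CJ28. The groups did not overlap, and MT-CYB fell by 0.55 (SE 0.098, adjusted p = 0.00044 by limma). MT-CYB lies at the far end of the plus-strand precursor from MT-ND1, and both fell by 0.55. Their ratio was 2.12 ± 0.21 in VEH, 2.11 ± 0.048 in CJ28 and 2.11 ± 0.048 in MET (SD, n = 4 each), with log2 differences between groups of 0.00073 or less and exact two-sided permutation p of 0.971 or more. The ratio of MT-ND1 to MT-RNR2 was lower by 0.30 on the log2 scale in CJ28 than in VEH (exact two-sided permutation p = 0.0857, adjusted 0.429).

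The complex IV mRNAs, which encode the catalytic core of cytochrome c oxidase, differed in the size of their change. MT-CO2 was at 3575, 3610, 3719 and 4071 TPM in VEH and at 2566, 2617, 2373 and 2887 TPM in CJ28. Every CJ28 sample was below every VEH sample, and MT-CO2 fell by 0.52 (SE 0.056, adjusted p = 5.33e-06 by limma). MT-CO3 was at 6860, 6536, 6321 and 6623 TPM in VEH and at 5337, 5310, 5363 and 5544 TPM in CJ28, a fall of 0.29 (SE 0.031, adjusted p = 4.95e-06). MT-CO1 was at 2755, 2766, 2601 and 3091 TPM in VEH and at 2481, 2495, 2339 and 2746 TPM in CJ28. Here the groups overlapped, since CJ28-4 was above VEH-3, and the change of -0.16 (SE 0.054, adjusted p = 0.0271) was close to the median of all genes. The call for MT-CO1 was lost in 9 of 22 alternative settings, among them those without VEH-4, CJ28-1, CJ28-2 or CJ28-3 (adjusted p of 0.0561 to 0.0829, log2 fold change of -0.15 to -0.11).

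The ATP synthase mRNAs held the largest change of the 15, that of MT-ATP8. MT-ATP8 was at 1922, 1976, 1901 and 2580 TPM in VEH and at 1406, 1264, 1028 and 1566 TPM in CJ28. VEH-4 stood well above its group, yet all CJ28 samples were below all VEH samples, and MT-ATP8 fell by 0.68 (SE 0.12, adjusted p = 0.000449 by limma). MT-ATP6, which follows it on the same mRNA, was at 1151, 1141, 1101 and 1455 TPM in VEH and at 852, 832, 696 and 988 TPM in CJ28, and fell by 0.53 (SE 0.10, adjusted p = 0.000675). Both genes encode subunits of the membrane part of the enzyme.

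The make-up of the mRNA pool was described by shares. As a share of the summed TPM of the 13 mRNAs, MT-CO1 was 13.5% to 14.0% in VEH and 15.8% to 16.2% in CJ28, and MT-ND4 2.62% to 3.17% and 3.20% to 3.66%. For both, all CJ28 samples were above all VEH samples. The share of MT-CO2 was 18.0% to 19.3% in VEH and 16.3% to 17.0% in CJ28, and that of MT-ATP8 9.69% to 11.5% and 7.13% to 9.11%, with all CJ28 samples below. The other 9 shares overlapped between these groups, and all 13 overlapped between MET and VEH. Shares within this pool do not depend on how the libraries are scaled, and they were looked at after the levels had been seen, so no test is given. They sum to 100%, so a share that is higher lowers others.

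**Figure D3:**
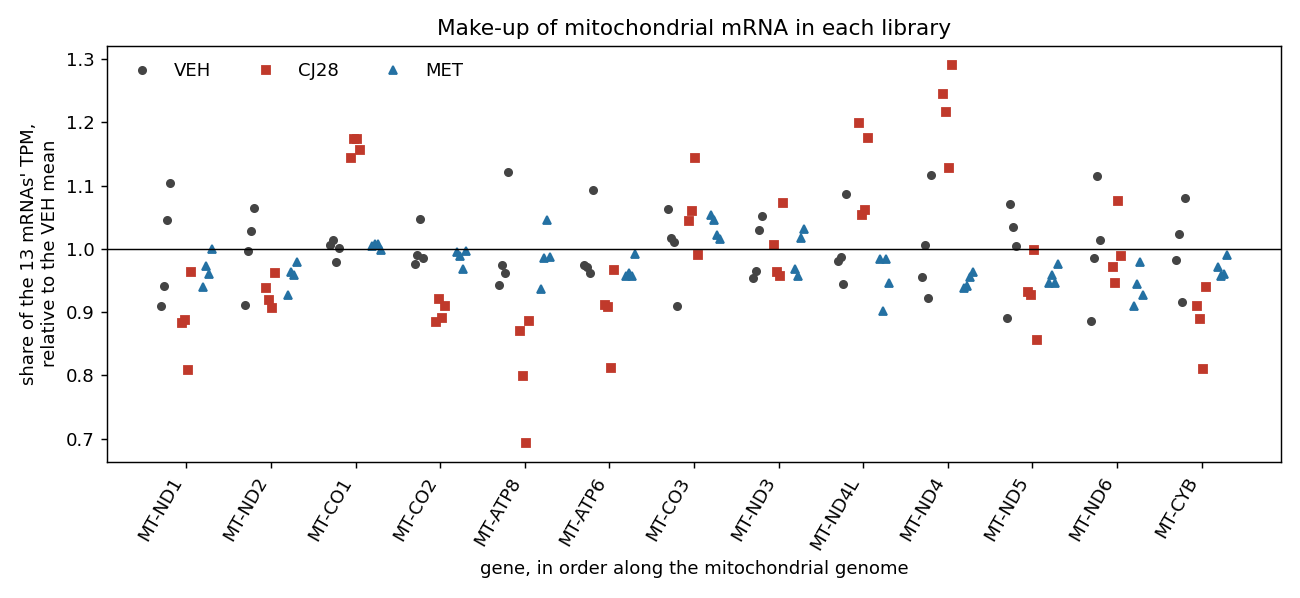
Share of each mRNA in the summed TPM of the 13 mitochondrial mRNAs, divided by its mean share in VEH, for each library. MT-CO1 and MT-ND4 lie above all VEH libraries in CJ28, and MT-CO2 and MT-ATP8 below.

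Ratios to neighbouring genes show the same for MT-ND4. Its ratio to MT-ND3, upstream of it on the plus strand, was 0.498 to 0.592 in VEH, 0.656 to 0.703 in CJ28 and 0.520 to 0.548 in MET. The ratio to MT-ND5, downstream of it, was 2.78 ± 0.29 in VEH, 3.66 ± 0.43 in CJ28 and 2.75 ± 0.034 in MET (SD, n = 4 each). All CJ28 values were above all others in both ratios, which were chosen after values had been seen. The ratio of summed rRNA to summed mRNA was 5.73 to 6.03 in VEH, 6.12 to 6.57 in CJ28 and 5.86 to 6.06 in MET, with all CJ28 samples above all others.

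How much of the fall is seen depends on what the transcripts are measured against. Dividing TPM by median-of-ratios size factors moved the median of all genes from -0.13 to 0.01, and dividing each library by its nuclear protein-coding TPM moved it to 0.06. Relative to the median of all genes as deposited, the log2 fold changes were -0.54 for MT-ATP8, -0.41 for MT-ND1 and MT-CYB, -0.39 for MT-CO2 and MT-ATP6, -0.12 for MT-RNR2, -0.02 for MT-CO1 and 0.05 for MT-ND4. Under median-of-ratios scaling 10 of 15 members were called, all lower (of all genes 55.6% were called and 26.3% were lower), and neither rRNA was among them. Against nuclear protein-coding TPM 8 of 15 were called, all lower (of all genes 56.5% were called and 23.4% were lower): MT-ND1, MT-ND2, MT-CO2, MT-ATP8, MT-ATP6, MT-CO3, MT-ND5 and MT-CYB. The same 8 genes were called lower under all 22 alternative settings, while MT-CO1 (0.05 against nuclear protein-coding TPM) and MT-ND4 (0.07 and 0.12 in the 2 scalings) changed sign without passing the test. The 13 mRNAs together were 7.87% to 9.02% of nuclear protein-coding TPM in VEH, 6.78% to 8.07% in CJ28 and 7.53% to 7.87% in MET, and the groups overlapped.

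**Figure D4:**
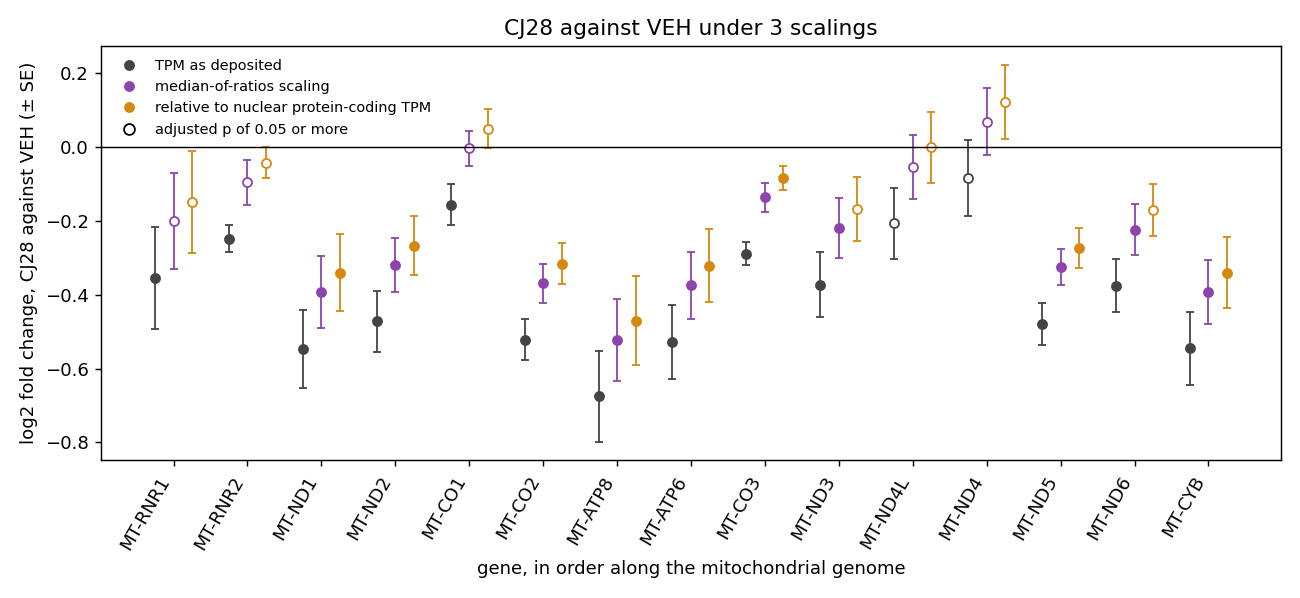
Log2 fold change of CJ28 against VEH with its SE under 3 scalings, for the 15 members in genome order; open circles mark an adjusted p of 0.05 or more. Filled circles remain under all 3 scalings for 8 members, and no filled circle lies above 0.

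The second question was whether MET, at the same dose and time, moved these transcripts, and it uses the same VEH samples. With limma, 0 of 15 members were called in MET against VEH (smallest adjusted p 0.933), and 3 had an unadjusted p under 0.05 (MT-CO2 0.0408, MT-ND5 0.0112 and MT-ND6 0.0183). Of all genes tested, 0.00595% were called, which is 1 gene, and 5.2% had an unadjusted p under 0.05. All 15 members had a log2 fold change below 0, from -0.23 (MT-RNR1) to -0.04 (MT-RNR2), with a median of -0.15 beside -0.03 over all genes, of which 61.1% were below 0. The 15 share their libraries and their template, so they are not 15 separate observations. Their size also rested in part on VEH-4. Without VEH-4 and CJ28-4, a fit chosen after seeing the data, they ran from -0.14 (MT-ND6) to -0.02 (MT-ATP8). In that fit MT-RNR1 was at -0.10 and MT-ND1 at -0.06, and the median of all genes was -0.02. MET samples were all below VEH samples for MT-RNR2 and MT-CO2, which held for 2.03% of all genes. MT-RNR2 was at 85637, 84058, 83547 and 83491 TPM in MET, and MT-CO2 at 3408, 3387, 3388 and 3506 TPM.

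The third comparison set the 2 inhibitors against each other, and it shares the CJ28 samples with the first and the MET samples with the second. In CJ28 against MET, 11 of 15 members were lower and none was higher, where 55.5% of all genes were called, 34.6% lower and 20.9% higher. The 4 that did not pass were MT-RNR1 (-0.13, SE 0.14), MT-CO1 (-0.05, SE 0.054), MT-ND4L (-0.03, SE 0.097) and MT-ND4 (0.10, SE 0.10). MT-ATP8 fell by 0.55 (SE 0.12, adjusted p = 0.00201 by limma), and MT-CO2, MT-ND1 and MT-CYB each fell by 0.39 (adjusted p = 6.33e-05, 0.00702 and 0.00449). In 9 members all CJ28 samples were below all MET samples (31.3% of all genes). Against nuclear protein-coding TPM, 4 members were called, 2 lower (MT-CO2 and MT-ATP8) and 2 higher (MT-CO1 at 0.14 and MT-ND4 at 0.29), where 56.2% of all genes were called and 22.2% were lower.

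Samples deviated together across the members. VEH-4 was the highest VEH sample in 13 of 15 members, at a median of 1.17 times the group mean, and CJ28-4 the highest CJ28 sample in 14 of 15 (1.15 times). MET-4 was the highest MET sample in 9 of 15 (1.03 times), so that the sample numbered 4 was most often the highest in each group. CJ28-3 was the lowest of its group in 11 of 15 (0.878 times), and MET-1 in 9 of 15 (0.978 times). In a fit without VEH-4 and CJ28-4, an alternative added after these values were seen, 14 of 15 members were lower in CJ28 than in VEH, beside 33.3% of all genes, and 13 of 15 lower than in MET, beside 33.4%.

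Nuclear copies moved partly with their mitochondrial partners. MTATP6P1 averaged 272 ± 42.0 TPM in VEH and 181 ± 32.6 in CJ28 and fell by 0.59 (SE 0.12, adjusted p = 0.000994 by limma), beside 0.53 for MT-ATP6. MTND1P23 averaged 286 ± 44.1 and 216 ± 39.1 TPM and fell by 0.41 (SE 0.13, adjusted p = 0.0152, lost in both other scalings), beside 0.55 for MT-ND1. MTCO1P12 averaged 675 ± 40.1 and 687 ± 28.7 TPM, a log2 fold change of 0.03 (SE 0.043, adjusted p = 0.629; called higher in both other scalings), while MT-CO1 was at -0.16. As a share of its partner, MTCO1P12 was 23.2% to 24.8% in VEH and 26.5% to 28.1% in CJ28. When the TPM of each copy was added to its partner, the change of MT-CO1 was -0.12 and no longer passed the test (adjusted p = 0.0674 by limma). In that fit 12 of 15 members were called, and the share of all genes called is not given here.

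Nuclear genes that serve mitochondrial RNA and DNA were followed in lists of 61 genes, 60 of which passed the filter. In CJ28 against VEH, 36 of 60 were called (60%, beside 57% of all genes), 13 higher and 23 lower, with a median log2 fold change of -0.10 beside -0.13. The share called was thus near that of all genes. Against nuclear protein-coding TPM 41 were called, 26 higher and 15 lower, and over all genes the shares also turned, from 19.9% higher and 37.1% lower to 33.1% and 23.4%. In MET against VEH 0 of 60 were called with limma, and 3 had an unadjusted p under 0.05, beside 5.2% of all genes.

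Of the 8 genes of mitochondrial transcription, 6 were lower in CJ28 (75%, beside 37.1% of all genes) and 1 higher (12.5%, beside 19.9%). Their median log2 fold change was -0.43, beside -0.13 over all genes. Against nuclear protein-coding TPM 4 were called lower (50%, beside 23.4% of all genes) and 2 higher (25%, beside 33.1%). Under median-of-ratios scaling 4 were called lower (50%, beside 26.3% of all genes) and 1 higher (12.5%, beside 29.3%). POLRMT, the polymerase, rose from 7.81 ± 0.35 to 10.8 ± 1.5 TPM (log2 fold change 0.45, SE 0.083). TFAM, which packages mitochondrial DNA and opens its promoters, fell by 0.50 (SE 0.056) from 25.1 ± 1.6 to 17.7 ± 1.3 TPM. TFB2M, the partner of the polymerase in initiation, fell by 0.44 (SE 0.078), and TEFM, an elongation factor, by 0.42 (SE 0.12, not called in either other scaling). MTERF2 and MTERF1, proteins that bind mitochondrial DNA, fell by 0.63 and by 0.57.

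Of 19 genes of RNA processing and stability, 3 were higher and 7 lower, with a median of -0.11. The share called, 52.6%, and the median were near the 57% and -0.13 of all genes. FASTKD5, which is needed to process mRNA ends that no tRNA flanks, fell by 1.44 (SE 0.072) from 5.17 ± 0.39 to 1.85 ± 0.12 TPM. TRMT10C, a part of the enzyme that cuts the 5′ ends of tRNAs, fell by 0.81 (SE 0.059). REXO2, which degrades short RNA remnants, was higher by 0.71 (SE 0.033), and SUPV3L1, a helicase of RNA decay, by 0.23 (SE 0.063). LRPPRC and SLIRP form a complex that stabilises mitochondrial mRNAs. LRPPRC rose by 0.15 (SE 0.048, adjusted p = 0.0196 by limma), a call lost without VEH-3 (adjusted p = 0.0582). SLIRP fell by 0.24 (SE 0.074, adjusted p = 0.0158), a call lost in both other scalings.

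The other lists went both ways. Of their tested genes, 44.4% were called for rRNA modification, 50% for mitochondrial DNA upkeep and 87.5% for biogenesis regulators, beside 57% of all genes. Of 9 genes of rRNA modification and assembly, 3 were higher, TFB1M (0.45, a call lost without VEH-1, adjusted p = 0.0614 by limma) and NSUN4 (0.32) among them, and MRM2 fell by 0.21, a call lost in both other scalings. Of 16 genes of mitochondrial DNA upkeep, 3 were higher and 5 lower. POLG2, a subunit of the mitochondrial DNA polymerase, rose by 0.92 (SE 0.098) and MPV17 by 0.35, while DNA2 and MGME1, nucleases of replication, fell by 0.69 and 0.60. Of 8 tested regulators of mitochondrial biogenesis, 3 were higher and 4 lower. PPARGC1A, a coactivator, rose from 1.35 ± 0.12 to 3.64 ± 0.43 TPM (1.36, SE 0.14) and ESRRA, a nuclear receptor that works with it, by 0.75 (SE 0.056), while GABPA and NRF1, transcription factors of nuclear genes for mitochondria, fell by 0.97 (SE 0.052) and 0.39 (SE 0.082), and NRF1 was not called against nuclear protein-coding TPM.

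The nuclear subunits of the same complexes were lower more often than higher. Of 74 genes, 62 were called in CJ28 against VEH (83.8%, beside 57% of all genes), 7 higher (9.46%, beside 19.9%) and 55 lower (74.3%, beside 37.1%), with a median log2 fold change of -0.34 beside -0.13. Against nuclear protein-coding TPM 57 were called, 19 higher (25.7%, beside 33.1% of all genes) and 38 lower (51.4%, beside 23.4%). By complex, the median of nuclear subunits stood beside the mitochondrially encoded ones at -0.29 and -0.38 for complex I, -0.34 and -0.55 for complex III, -0.41 and -0.29 for complex IV, and -0.50 and -0.60 for complex V. In complex I, 24 of 37 nuclear genes were lower and 4 higher, with NDUFB3 (fell by 1.03) and NDUFS5 (fell by 0.77) at one end and NDUFS7 (0.33) and NDUFS1 (0.31) at the other. In complex III, all 9 were called, 6 lower and 3 higher: UQCR10 fell by 0.84 and UQCRQ by 0.50, and UQCRC2 and UQCRC1 rose by 0.67 and 0.23. In complex IV, 10 of 11 were lower, led by COX7B (fell by 0.83) and NDUFA4 (fell by 0.76). In complex V, 15 of 17 were lower, led by ATP5MC1 (fell by 0.76) and ATP5F1E (fell by 0.75).

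**Figure D5:**
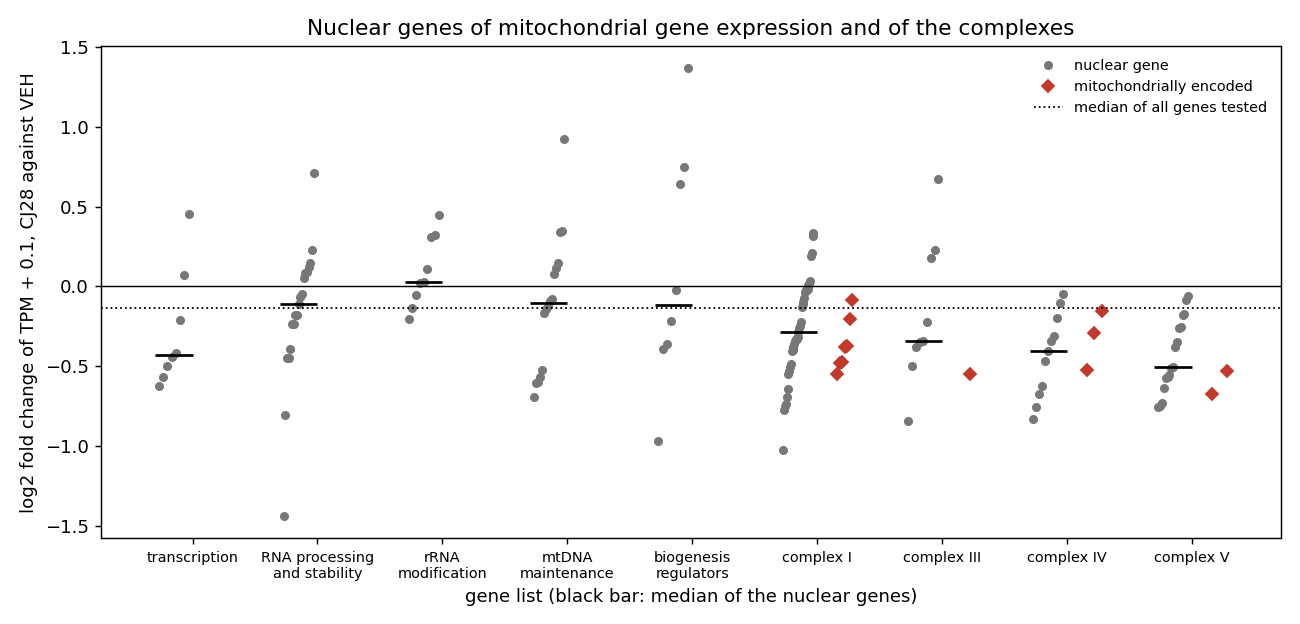
Log2 fold change of CJ28 against VEH for nuclear genes of 9 lists (grey points, black bars at the list medians) and, for the 4 complexes, the mitochondrially encoded subunits (red diamonds); the dotted line is the median of all genes tested, -0.13. List medians run from 0.03 (rRNA modification) to -0.50 (complex V).

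In MET against VEH, 0 of the 74 nuclear subunit genes were called with limma, beside 0.00595% of all genes, and 5 had an unadjusted p under 0.05, beside 5.2% of all genes. Their median log2 fold change was 0.02, and 17 of 74 were below 0, as were 13 of 13 mitochondrially encoded mRNAs with a median of -0.15 and 61.1% of all genes with a median of -0.03. Without VEH-4 and CJ28-4 these mRNAs ran from -0.14 (MT-ND6) to -0.02 (MT-ATP8). The nuclear median in that fit is not given here.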

How the data were processed

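Total RNA of 12 samples of NCI-H295R cells (3 groups of 4) was depleted of rRNA with Ribo-Zero and made into stranded libraries with a TruSeq kit. The authors deposited a table of TPM per gene, which per the submitters' processing notes was made with cutadapt (version 2.8), STAR (version 2.7.10b) and RSEM (version 1.3.3) on GRCh38. The annotation release and the strand setting of RSEM are not given in the sources used here. Reads from near-identical or overlapping genes can be divided among them. The study lists the input reads and mapping rate of each library, which were not used here. TPM itself does not hold the reads behind a gene's value, and no counting interval or detection floor was computed. Count data were not analysed here.

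Samples were grouped by the treatment in their labels. With limma (version 3.58.1, in R version 4.3.3), log2(TPM + 0.1) was modelled by lmFit and eBayes with a trend for the 16815 of 60662 genes that reached 0.5 TPM in 4 or more samples, all 12 samples in 1 fit without covariates, with Benjamini-Hochberg adjustment over all genes tested and a threshold of 0.05. The procedure was tested on simulated data in which genes varied independently and few were changed. That simulation does not cover genes that vary together by library, as the members did, or a shifted library total. The 4 ratios were compared by exact two-sided permutation tests of mean log2 ratios, adjusted over 12 tests. Values were handled with Python (version 3.11.15), pandas (version 2.3.3), numpy (version 2.4.6) and scipy (version 1.17.1), and drawn with matplotlib (version 3.10.9). Sequences were read from the GRCh38 genome sequence and pairs aligned with Biopython (version 1.88). All 37 mitochondrial genes had the same coordinates in the table and in GENCODE release 44.

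The members and the gene lists were chosen with earlier results of these data known. Named genes are all members past the filter, POLRMT, TFAM, TFB2M, TEFM, LRPPRC and SLIRP, the 2 genes of each list with the largest rise and the 2 with the largest fall in CJ28 against VEH among those with an adjusted p under 0.05 and a mean TPM of at least 1, and the 3 most abundant nuclear copies. MTCO2P12, MTND2P28, MTCO3P12 and the markers were named outside this rule, after values had been seen. Alternatives were pseudocounts of 1 and 0.01, all genes above 0 or a mean TPM of at least 1, both scalings, the replicate number as a block, a fit restricted to the pair of groups, and each sample left out. A fit without VEH-4 and CJ28-4 and one with the nuclear copies added to their partners were chosen after seeing the data, as was an exchange of group labels within replicate numbers for the ratios.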

Additional observations from a re-analysis of the deposited data

Results flagged for a closer look

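In the VEH group, the sample VEH-4 stood far above the other 3 for both ATP synthase genes. MT-ATP8 was at 2580 TPM in VEH-4 and at 1901 to 1976 TPM in the others, so that the gap to the next sample was 0.89 of the group's whole range. MT-ATP6 was at 1455 TPM in VEH-4 and at 1101 to 1151 TPM in the others (0.859 of the range). Both are above Dixon's 95% critical value for 4 samples. In all, 57 groups of 4 values were examined and 2 met this criterion, and chance alone gives about 1 in 20. The 2 genes share 46 nt and their mRNA, so they are not separate observations, and VEH-4 was also the highest VEH sample in 13 of 15 members. Without VEH-4 and CJ28-4, an alternative chosen after seeing the data, both genes were still called lower in CJ28 than in VEH.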

How the results depend on the processing

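The call of 13 lower members in CJ28 against VEH ranged from 11 to 14 with each replicate left out and was 8 against nuclear protein-coding TPM, and that of 11 in CJ28 against MET ranged from 9 to 11 and was 7 under median-of-ratios scaling and 4 against nuclear protein-coding TPM. Of all genes in CJ28 against MET, 54.8% were called under median-of-ratios scaling (26.1% lower) and 56.2% against nuclear protein-coding TPM (22.2% lower). Of the 4 members called in the latter, 2 were higher. These scalings raise every gene of CJ28 by about the same amount. With all 40973 genes above 0 in the fit, 10 and 8 members were called. The share of all genes called in that fit is not given here, so these counts have no background beside them. The count of 0 in MET against VEH was 0 in all 22 alternatives by limma.

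Signs changed as follows. Against nuclear protein-coding TPM, MT-CO1 in CJ28 against VEH was 0.049 and MT-ND4 0.12, and in CJ28 against MET MT-RNR1 was 0.065, MT-CO1 0.14, MT-ND4L 0.16 and MT-ND6 0.0096. Under median-of-ratios scaling, MT-ND4 in CJ28 against VEH was 0.069, and in CJ28 against MET MT-CO1 was 0.069 and MT-ND4L 0.092. With a replicate left out, MT-ND4L in CJ28 against MET ranged from -0.098 to 0.036 (0.0084 without CJ28-2 and 0.036 without CJ28-3), MT-ND4 in CJ28 against VEH from -0.16 to 0.018 (0.018 without VEH-4), and MTCO1P12 from -0.013 to 0.056 (-0.013 without VEH-3 and -0.0014 without CJ28-4). None of these values passed the test in CJ28 against VEH, and in CJ28 against MET only MT-CO1 against nuclear protein-coding TPM did (adjusted p = 0.0425). MT-ND4L became called in CJ28 against VEH without VEH-3 (adjusted p = 0.0492) and without CJ28-4 (0.0281). In CJ28 against MET, MT-ND3 was lost without CJ28-2, CJ28-3, MET-3 or MET-4 (adjusted p of 0.0611 to 0.0802) and MT-ND6 without VEH-2, CJ28-1, CJ28-2, CJ28-3, MET-2, MET-3 or MET-4 (0.0547 to 0.124). Without VEH-4 and CJ28-4, added after seeing the data, SLIRP, MRM2 and TFB1M were no longer called (adjusted p of 0.0517 to 0.0899).

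Over all genes tested, the deviations of samples with equal replicate numbers correlated at -0.124 to 0.0394. Among the members, sample 4 was most often the highest in each group (13, 14 and 9 of 15 in VEH, CJ28 and MET). Whether equal numbers mark a shared batch is not given in the sources used here. With the replicate number as a block, 14, 0 and 11 members were called in CJ28 against VEH, MET against VEH and CJ28 against MET, beside 56.8%, 0.00595% and 55.7% of all genes. After centring the samples that share a number, 3 ratios had an exact permutation p of 0.0286 over free permutations of 4 against 4 samples, which do not keep to the block: MT-ND1 to MT-RNR2 (-0.30) and MT-ND6 to MT-ND5 (0.10) in CJ28 against VEH and MT-ND6 to MT-ND5 in CJ28 against MET (0.13). With labels exchanged only within replicate numbers, added after seeing the data, the smallest possible exact p is 0.125, so no ratio can pass, and these 3 were at 0.125. TPM does not give reads per gene, so counting error of low genes was not computed. Except where stated, the cause of a change with the setting was not tested.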

Other observations

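The spread between samples was smaller in MET than in the other groups. The SD of log2(TPM + 0.1) was smaller in MET than in VEH for 14 of 15 members, beside 54.3% of all genes tested, and smaller than in CJ28 for 14 of 15, beside 52.9%. For MT-RNR1 the coefficient of variation was 20.7% in VEH, 18.1% in CJ28 and 3.11% in MET. The members share their libraries, so these are not 15 separate observations.

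Across the 15 members, the log2 fold change of CJ28 against VEH had a Spearman correlation of 0.26 with gene length, -0.03 with GC content, 0.21 with the level in VEH and -0.02 with the position of the gene's start on the mitochondrial genome. These are descriptions over genes that share libraries and precursors. For MET against VEH these correlations were 0.11, 0.09, 0.55 and -0.21, in the same order.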
